A study of Mus musculus with 99 samples.

Results

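The calcium pumps and sodium-calcium exchangers of the plasma membrane and the endoplasmic reticulum were described in single hair cells of the mouse cochlea. The set held the 10 genes of the count table that carry these names, of 55291 genes in all: the endoplasmic reticulum pumps (SERCA) Atp2a1, Atp2a2 and Atp2a3, the plasma membrane pumps (PMCA) Atp2b1, Atp2b2, Atp2b3 and Atp2b4, and the sodium-calcium exchangers (NCX) Slc8a1, Slc8a2 and Slc8a3. The first group held 32 outer hair cells (OHCs) of postnatal day 30, labelled wild type, with the genotype Slc26a5-CreER/+; Ai9/+. The second held 67 converted inner hair cells (cIHCs) of postnatal day 42, with the genotype Slc26a5-CreER/+; Rosa26Tbx2/+, which makes OHCs express the transcription factor Tbx2. All mice were C57BL/6 and all carried the inducible Slc26a5-CreER, whose Cre is driven by the gene of the OHC motor protein prestin; the Ai9 allele is a red fluorescent Cre reporter. Each library was 1 cell and no label named an animal, so each group counted as 1 sample and no test was made. Age and genotype differed together, so their parts in any difference cannot be told apart. No group of inner hair cells (IHCs) that had not been converted was analysed here.

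Calcium enters hair cells through transduction channels at the bundle and through voltage-gated channels at the base, and has to be removed again. SERCA pumps move it from the cytosol into the endoplasmic reticulum, and PMCA pumps push it out of the cell, both at the cost of ATP. NCX exchangers carry calcium out against an inward flow of sodium and depend on the sodium gradient that the sodium pump keeps. In hair cells the PMCA2 pump, the product of Atp2b2, is known as the pump of the stereocilia, and its loss causes deafness and imbalance in mice. The PMCA1 pump, the product of Atp2b1, is known from the basolateral membrane.

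The windows before the start sites of the 3 pump genes with the largest differences among those with at least 10 CPM are shown, because Tbx2, the factor expressed in the cIHCs, belongs to the T-box family, whose proteins bind a half-site with the letters AGGTGTGA. The sequences are from RefSeq on GRCm38.p6, hold the 250 bases before the start, and run 5′ to 3′ on the strand of the gene. Capitals mark the core GGTGTG, or CACACC where it lies on the other strand. Atp2a3 lies on the plus strand with 1 start in the table (chr11:72960919-72961168). Atp2b1 lies on the plus strand with its outermost of 2 starts (chr10:98914392-98914641), and Atp2b2 on the minus strand with its outermost of 3 starts (chr6:114042081-114042330). The starts are those of RefSeq. By the GENCODE gene coordinates given below, the window of Atp2b2 lies inside the gene. Atp2b1 begins there at 98914406, so its window lies largely inside the gene too.
Atp2a3: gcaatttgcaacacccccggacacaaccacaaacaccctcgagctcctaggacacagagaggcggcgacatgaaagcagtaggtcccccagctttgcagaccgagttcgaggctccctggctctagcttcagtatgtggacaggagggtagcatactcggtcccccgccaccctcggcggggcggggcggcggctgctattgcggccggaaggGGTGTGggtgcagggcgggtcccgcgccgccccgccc
Atp2b1: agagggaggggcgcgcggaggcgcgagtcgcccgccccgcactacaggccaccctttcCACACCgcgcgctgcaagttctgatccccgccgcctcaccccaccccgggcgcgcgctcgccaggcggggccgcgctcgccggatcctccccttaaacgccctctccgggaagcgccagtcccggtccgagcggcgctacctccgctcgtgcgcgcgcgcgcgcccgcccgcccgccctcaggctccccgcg
Atp2b2: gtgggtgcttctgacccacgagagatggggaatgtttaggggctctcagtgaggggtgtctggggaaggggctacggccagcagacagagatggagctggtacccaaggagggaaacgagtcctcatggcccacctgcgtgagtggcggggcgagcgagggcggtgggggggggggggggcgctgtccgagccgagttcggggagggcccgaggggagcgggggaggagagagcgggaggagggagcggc
The core lay 37 bases before the start of Atp2a3 and 192 bases before that of Atp2b1, and did not occur in the window of Atp2b2. G and C made up 66.8%, 78.4% and 69.6% of the 3 windows. Promoter entries were found for 8 of the 10 genes, with 11 windows, and the letters were sought in the 250 bases before each start. The half-site AGGTGTGA, on either strand, was in 0 of these 11 windows and in 1.12% of all 32851 windows. The core, which is part of the half-site, was in 2 of the 11 windows and in 16.3% of all. A match of letters is not a binding site, and a window without one says nothing about the factor.

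The median read count per OHC was 7443782, the lowest 5656512 and the highest 9287413. Per cIHC the median was 7757517, the lowest 4677682 and the highest 13792672. Genes with reads per cell had a median of 6068.5 in OHCs and 8546 in cIHCs. The labels were set beside marker genes. The marker lists were chosen with earlier results of these data known, so their directions are no independent check. All 8 OHC markers, Slc26a5 and Ocm among them, were higher in OHCs, and their summed level was 55055 counts per 1000000 reads (CPM) against 1022 CPM in cIHCs. All 8 IHC markers were higher in cIHCs, with sums of 2537 and 12097 CPM. Otof and Slc17a8 are among them, and so is Tbx2, at 0.01 and 731 CPM. The genotype of the cIHCs makes OHCs express Tbx2, so its direction is no check of the labels. Xist reached 10 CPM in 4 OHCs and 55 cIHCs, and a Y-linked gene in 24 OHCs and 12 cIHCs. The labels do not name the sex of the mice, so ratios are also given within these sets of cells.

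Levels below are pooled CPM, in which a group's counts are summed over its cells and scaled to the group's total. Every ratio sets cIHCs over OHCs and is on the log2 scale. Of the 10 genes, 6 reached 10 CPM in 1 or both groups. Atp2a3 and Atp2b1 were higher in cIHCs by at least 1 on the log2 scale, a difference that 26.3% of the 10041 genes with at least 10 CPM showed. Atp2b2, Slc8a1 and Slc8a2 were lower by at least 1, as were 14.3% of those genes. Atp2a2 lay between. The median log2 ratio of the 6 genes was -0.97, against 0.25 over all 10041 genes. Scaling by TMM lowered the median of all genes by 0.22, and relative to the median of all genes the ratios were 7.0 for Atp2a3, 1.44 for Atp2b1, -0.52 for Atp2a2, -1.92 for Slc8a2, -3.06 for Slc8a1 and -5.92 for Atp2b2. Intervals given with the ratios are 95% and cover counting error only; amplified reads do not each stand for a molecule, and variation from animal to animal is not in them.

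**Figure D1:**
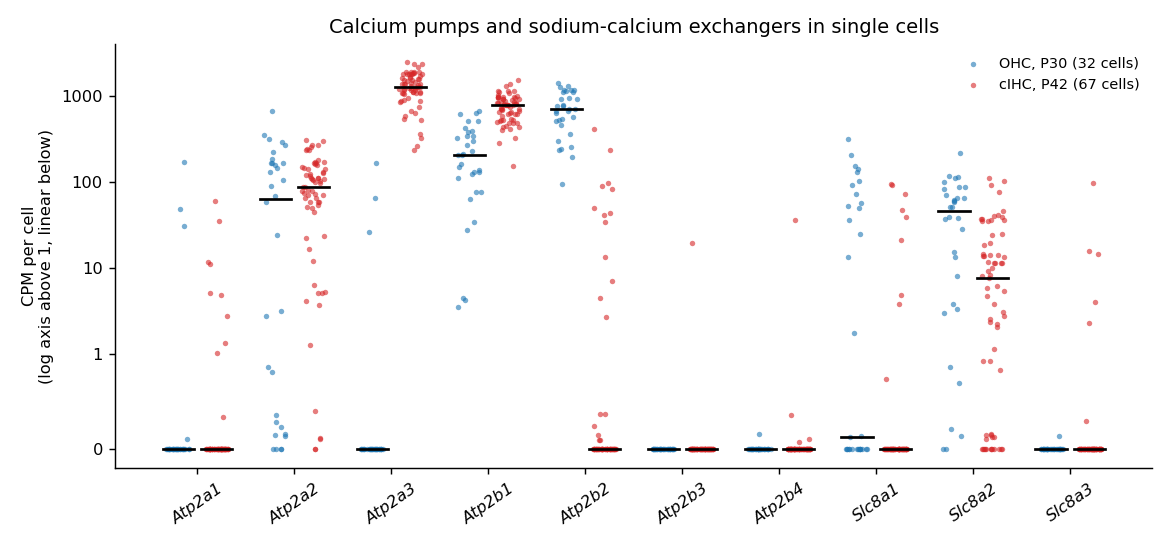
Level of each of the 10 genes in every cell, in CPM on an axis that is logarithmic above 1 and linear below, for 32 OHCs (blue) and 67 cIHCs (red); each point is 1 cell and each bar the group's median. Atp2a3 is at 0 in 29 of the OHC points and at 235.6 CPM or more in all 67 cIHCs, whereas the medians of Atp2b2 are 701 CPM in OHCs and 0 in cIHCs.

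Among the SERCA pumps, Atp2a3 separated the groups. Its product, SERCA3, is known from non-muscle cells and has a lower affinity for calcium than SERCA2. Atp2a3 (ENSMUSG00000020788.15, GRCm38 chromosome 11, 72961169 to 72993044, plus strand) had reads in 3 of 32 OHCs, at 165.0 CPM in OHC 1, 63.9 CPM in OHC 2 and 26.3 CPM in OHC 11. In cIHCs it had reads in 67 of 67 cells, with a lowest level of 235.6, a median of 1269.3 and a highest of 2457.5 CPM. The groups did not overlap: every cIHC was above every OHC, as was the case for 8 of the 10041 genes, or 0.0797%. Pooled, Atp2a3 stood at 8.62 CPM in OHCs against 1310.01 CPM in cIHCs, giving a log2 ratio of 7.25 (7.19 to 7.31), or 152-fold. The OHC level rested on few cells, since 66.3% of its reads came from OHC 1. Leaving out the highest cell on either side gave 8.75. A larger ratio was found for 397 of the genes with at least 10 CPM. The 4 OHCs with Xist reads held no read of Atp2a3, against 1286 CPM in the 55 such cIHCs, a ratio of at least 13.59 with a floor of 3 counts over the group. Among cells with Y-linked reads 24 OHCs stood at 10.1 CPM and 12 cIHCs at 1451 CPM, a ratio of 7.17.

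Atp2a2 encodes SERCA2, the SERCA pump found in most cell types. It had reads in 28 of 32 OHCs and 65 of 67 cIHCs, and at least 10 CPM in 18 OHCs and 55 cIHCs. In OHCs its lowest level was 0, its median 63.1 and its highest 671.7 CPM, and in cIHCs these were 0, 86.5 and 304.3 CPM. The groups overlapped, with 3 OHCs above every cIHC, and the cIHC was higher in 55.7% of the pairs of 1 cIHC and 1 OHC. The pooled levels were 115.2 and 95.7 CPM, with a log2 ratio of -0.27. This direction was not stable, since the ratio was 0.45 from the medians per cell and 0.56 among cells with Y-linked reads. OHC 11 held 22.3% of the OHC reads of Atp2a2, and leaving out the highest cell on either side gave -0.01. A stretch of 83 bases of its exons overlaps Gm43361 on the other strand.

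Atp2a1, the SERCA1 pump of fast skeletal muscle, had reads in 4 OHCs and 10 cIHCs. Its pooled level was 8.82 CPM in OHCs against 1.88 CPM in cIHCs, giving a log2 ratio of -2.23, both levels below the minimum of 10 CPM. The highest cell held 69.0% of the OHC reads (OHC 15, at 169.0 CPM) and 38.8% of the cIHC reads (cIHC 13, at 59.1 CPM), and without them the ratio was -1.29. Among cells with Xist reads the direction was the other one, since the 4 OHCs held none and the 55 cIHCs stood at 2.06 CPM. The value is uncertain also because its exons overlap those of Rabep2 on the other strand by 763 bases, and the strand setting of the counting is not given in the sources used here. The sum of the 6 skeletal muscle markers was 4.97 CPM for OHCs against 9.19 CPM for cIHCs, mostly of Tnnt3, with 4.97 CPM over 2 OHCs and 7.57 CPM over 16 cIHCs. Acta1 gave 1.61 CPM in cIHCs, whereas Ckm, Myh1 and Myh2 had no read in either group, and OHC 15 and cIHC 13 held no read of any of the 6 muscle markers.

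Among the plasma membrane pumps, Atp2b2 was the lower and Atp2b1 the higher gene in cIHCs. Atp2b2 (ENSMUSG00000030302.16, GRCm38 chromosome 6, 113743831 to 114042613, minus strand) had reads in 32 of 32 OHCs, with a lowest level of 94.7, a median of 701.0 and a highest of 1422.5 CPM. In cIHCs its lowest level and its median were 0 and its highest 415.5 CPM, with reads in 19 of 67 cells and at least 10 CPM in 10. The pooled level was 734.2 CPM in OHCs against 14.4 CPM in cIHCs, giving a log2 ratio of -5.67 (-5.70 to -5.64), or 50.9-fold higher in OHCs. The OHC was higher in 99.5% of the pairs, 64 of 67 cIHCs were below every OHC, and 25 of 32 OHCs were above every cIHC. A lower ratio was found for 117 of the genes with at least 10 CPM. The ratio was -5.75 among cells with Xist reads and -4.92 among cells with Y-linked reads. Leaving out the highest cell on either side gave -6.31.

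The few cIHCs that held Atp2b2 did not form an even series. cIHC 22, the highest at 415.5 CPM, held 38.4% of the reads of its group, and cIHC 10 followed with 233.9 CPM. These cells also held 4718 and 1937 CPM of the OHC marker Ocm, which encodes oncomodulin, a calcium buffer of OHCs. Both had no read of Slc26a5. Over all cIHCs the pooled level of Ocm was 239 CPM, with 26.3% of the reads in cIHC 22, and the median per cell 14.7 CPM. Among the other cIHCs with at least 10 CPM of Atp2b2, cIHC 2, 4, 13, 34, 37 and 42 also held Ocm above this median. Their Ocm levels were 415, 313, 325, 212, 37.8 and 159 CPM. The pairing with Ocm had exceptions: cIHC 32 held 2416 CPM of Ocm, more than cIHC 10, with 0.24 CPM of Atp2b2. Likewise cIHC 52 held 1545 CPM of Ocm with 4.46 CPM of Atp2b2, and cIHC 53 held 95.4 CPM of Atp2b2 with 1.25 CPM of Ocm. cIHC 14 held 88.7 CPM of Atp2b2 and no read of Ocm. These cells were named after their values were seen.

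Atp2b1 (ENSMUSG00000019943.10, GRCm38 chromosome 10, 98914406 to 99026143, plus strand) had reads in every cell of both groups. In OHCs its lowest level was 3.45, its median 204 and its highest 673.1 CPM, and in cIHCs these were 151.2, 776.0 and 1514.2 CPM. The ranges overlapped, with 42 of 67 cIHCs above every OHC and 14 of 32 OHCs below every cIHC, and the cIHC was higher in 94.4% of the pairs. The pooled level was 238.9 CPM in OHCs against 771.2 CPM in cIHCs, giving a log2 ratio of 1.69 (1.68 to 1.70), or 3.23-fold. A larger ratio was found for 1562 of the genes with at least 10 CPM. The ratio was 1.01 for the cells with Xist reads, of which the 4 OHCs stood at 398.4 CPM, and 1.35 among cells with Y-linked reads. No other gene of the annotation overlaps the exons of Atp2a3, Atp2b1 or Atp2b2.

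Atp2b3 and Atp2b4, which encode PMCA3 and PMCA4, were nearly absent. Atp2b3 had no read in 32 OHCs, which allows a share of cells with reads of up to 9.38% by the limit of 3 of 32 cells, for counting error within these cells only, and was found in 1 cIHC, cIHC 48, at 19.3 CPM. Atp2b4 had 1 read in OHCs and 332 in 4 cIHCs, of which 98.5% were in cIHC 62 at 35.9 CPM. Its log2 ratio of 7.21 (4.72 to 12.51) rested on that cell. With the highest cell on either side left out, OHCs held no read and the ratio was at least -0.45, with the floor of 3 counts.

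**Figure D2:**
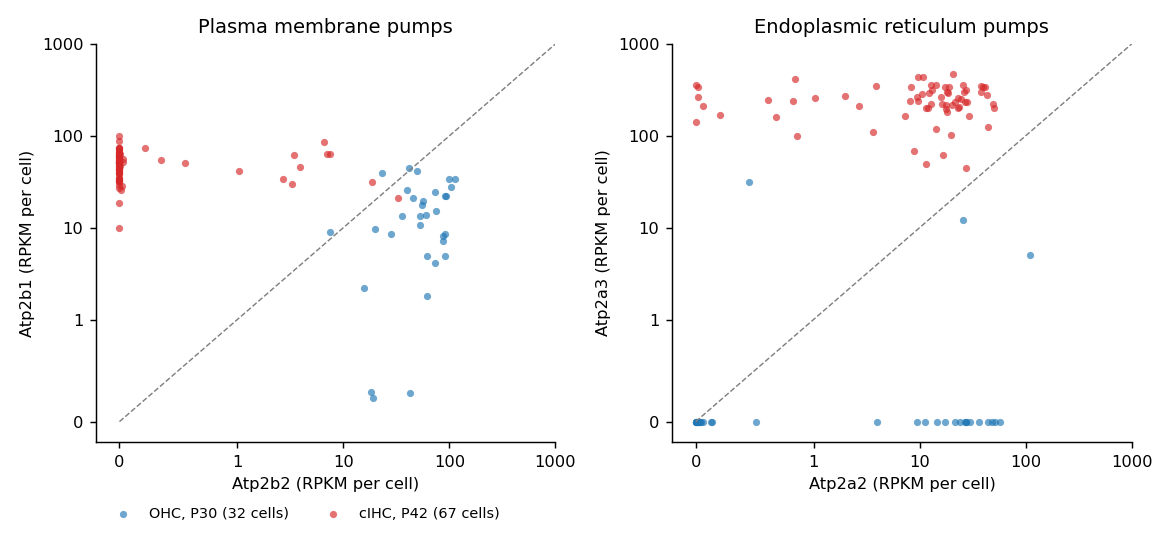
Reads per kilobase of exon, scaled to the total of the cell (RPKM), in each cell for Atp2b1 against Atp2b2 (left) and Atp2a3 against Atp2a2 (right); blue points are 32 OHCs, red points 67 cIHCs, both axes are logarithmic above 1 and linear below, and the dashed line marks equal levels. Atp2b1 is above Atp2b2 in 66 of 67 cIHCs and 3 of 32 OHCs, and Atp2a3 is above Atp2a2 in all 67 cIHCs.

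Both exchanger genes with at least 10 CPM, Slc8a1 and Slc8a2, were lower in cIHCs. Slc8a2 encodes NCX2, known from neurons. It had reads in 30 of 32 OHCs and 55 of 67 cIHCs, and at least 10 CPM in 22 OHCs and 29 cIHCs. Its lowest level was 0, its median 45.1 and its highest 217.2 CPM in OHCs, and in cIHCs these were 0, 7.68 and 109.1 CPM. The ranges overlapped, and the cIHC was higher in 27.1% of the pairs. The pooled levels were 49.5 and 15.5 CPM, a log2 ratio of -1.67 (-1.71 to -1.63). It was -2.59 for the cells with Xist reads, of which the 4 OHCs stood at 97.5 CPM, and -1.87 among cells with Y-linked reads.

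Slc8a1, which encodes the NCX1 exchanger known from the heart, was found in fewer cells. It had reads in 17 of 32 OHCs and 9 of 67 cIHCs. Its median was 0.13 CPM in OHCs and 0 in cIHCs, and its highest levels were 310.5 and 94.9 CPM. The pooled levels were 43.7 and 6.20 CPM, a log2 ratio of -2.82 (-2.87 to -2.76), and 6 OHCs were above every cIHC. In 50.6% of the pairs the OHC was higher, and in 8.86% the cIHC, the others being pairs with no read in both cells. The ratio was -3.79 among cells with Xist reads and -2.17 among those with Y-linked reads. Slc8a3, the NCX3 gene, had 1 read in OHCs and 1245 in 6 cIHCs, with 77.8% in cIHC 30 at 96.1 CPM. Its pooled level in cIHCs was 2.29 CPM, and the ratio to a single read was 9.11 (6.63 to 14.42). With the highest cell on either side left out, OHCs held no read and the ratio was at least 5.34.

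Levels were compared between genes per length, as RPKM over the union of each gene's exons. In OHCs Atp2b2 led with 58.2 RPKM, followed by Atp2a2 with 18.9, Atp2b1 with 15.7 and Slc8a2 with 9.40 RPKM. Atp2b2 was above Atp2a2 in 28 of 32 OHCs. Atp2a2 and Atp2b1 did not keep their order from cell to cell, since Atp2a2 was the higher in 13 of 32. Their order also depends on the length used for Atp2b1, whose union of exons is 15218 bases and whose longest transcript is 7130 bases. Atp2a1, Slc8a1 and Atp2a3 followed with 2.54, 2.32 and 1.63 RPKM, of which Slc8a1 had reads in 17 cells and the others in 4 and 3. In cIHCs Atp2a3 led with 248 RPKM and was above Atp2b1, at 50.7 RPKM, in 66 of 67 cells. Atp2b1 was above Atp2a2, at 15.7 RPKM, in 62 of 67 cells, and Atp2a2 above Slc8a2, at 2.95 RPKM, in 57. Atp2b2 stood at 1.14 RPKM and the 5 other genes at or below 0.54 RPKM, where most cells had no read and the order is not supported cell by cell.

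The leading gene differed between the groups in the SERCA and PMCA families and was Slc8a2 in both groups in the NCX family. Of the SERCA level in OHCs, Atp2a2 gave 82.0%, Atp2a1 11% and Atp2a3 7.06%, and Atp2a2 was the highest SERCA gene in 26 of the 28 OHCs with SERCA reads. Some of these cells held only trace reads: Atp2a2 reached 10 CPM in 18 of 32 OHCs, and OHC 19 held 0.13 CPM of it. In cIHCs Atp2a3 gave 93.8% and Atp2a2 5.95%, and Atp2a3 was the highest in 67 of 67 cells, with a share between 61.7% and 100.0%. Of the PMCA level in OHCs, Atp2b2 gave 78.8% and Atp2b1 21.2%, and Atp2b2 was the highest in 29 of 32 cells. In cIHCs Atp2b1 gave 97.6% and Atp2b2 2.2%, and Atp2b1 was the highest in 66 of 67 cells. The exception was cIHC 22, where Atp2b2 gave 60.8% of the PMCA level. Of the NCX level, Slc8a2 gave 80.2% in OHCs and 79.5% in cIHCs, with Slc8a1 at 19.8% and 8.90% and Slc8a3 at 0.0066% and 11.6%.

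**Figure D3:**
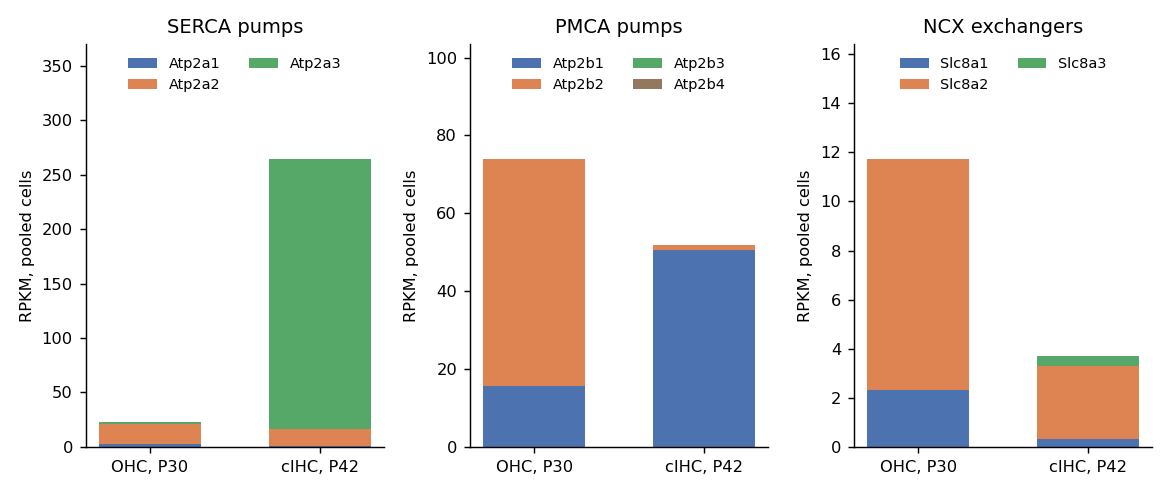
Summed level of each family in pooled OHCs and pooled cIHCs, in RPKM on a linear axis from 0, with each gene's part in its own colour; the 3 panels have different scales. The SERCA sum is 23.1 RPKM in OHCs and 264 RPKM in cIHCs, while the PMCA sums, 73.9 and 51.9 RPKM, are carried by different genes.

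Summed over its genes, the SERCA level was higher in cIHCs, the NCX level lower, and the PMCA level depended on the gene length used. The SERCA sum was 11.4-fold higher in cIHCs, a log2 ratio of 3.52, and the cIHC was higher in 99.7% of the pairs. Its median per cell was 20.7 RPKM in OHCs, within 0 to 115.4, and 261 RPKM in cIHCs, within 61.3 to 485.9. The PMCA sum had a log2 ratio of -0.51, from a median of 73.5 RPKM per OHC to 51.5 RPKM per cIHC, with wide overlap. It depended on the length used for Atp2b1, whose union of exons is 15218 bases and whose longest transcript is 7130 bases. With the longest transcripts the PMCA ratio was -0.08 and Atp2b1 gave 28.8% of the OHC level, and by plain CPM the ratio was -0.31. The NCX sum was 3.16-fold lower in cIHCs, a log2 ratio of -1.66, with medians of 9.78 RPKM per OHC and 2.17 RPKM per cIHC.

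Within a group the rank correlations between these genes were weak. Across the 67 cIHCs Spearman's rho of CPM was 0.08 between Atp2a3 and Atp2b1, 0.04 between Atp2a2 and Atp2a3 and 0.22 between Atp2a2 and Slc8a2. Across the 32 OHCs it was 0.26 between Atp2b1 and Atp2b2 and 0.29 between Atp2b1 and Slc8a2. The level of Tbx2 had a rho of 0.03 with Atp2a3 and 0.12 with Atp2b1 across cIHCs, and Otof, the gene of the IHC exocytosis protein otoferlin, 0.31 and 0.28. Each point is a library of its own depth, and the rho of these genes with the number of genes with reads lay between -0.12 and 0.23. With the total count per cell the rho across cIHCs was 0.27 for Atp2b1 and -0.24 for Atp2a2, as large as the values between genes. Without a test, such weak values across 32 or 67 cells are no finding.

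The genes whose levels were most like each pump were sought among genes that reached 50 pooled CPM and were read in 75% or more of the cells, 2342 in OHCs and 3936 in cIHCs. In cIHCs those most like Atp2a3 were Prkcd, with a rho of 0.62, Cpe with 0.60 and Syne4 with 0.53. Prkcd encodes a protein kinase C and Cpe the prohormone-processing carboxypeptidase E. Those most like Atp2b1 in cIHCs were Mlf1 (0.53), Mindy4b-ps (0.50) and Txndc15 (0.45), and those most like Atp2a2 were Uba2 (0.45), Spryd7 (0.42) and Tsen34 (0.41). In OHCs Atp2b2 was most like Ank (0.56), Gpatch8 (0.54) and Per3 (0.53), Atp2b1 most like Malat1 (0.57), Dytn (0.57) and Stt3a (0.53), and Atp2a2 most like Aup1 (0.57), Sfr1 (0.56) and Slc35e4 (0.55). These are the top values of many, over 32 or 67 cells.

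Other genes of calcium clearance were taken from lists, whose counts stand beside the 26.3% of all 10041 genes that were higher and the 14.3% that were lower by at least 1. Among secretory pathway pumps and the other sodium- and potassium-dependent exchangers, 3 of 8 genes had at least 10 CPM, of which 1 was higher by at least 1 on the log2 scale and 0 lower, with a median of 0.42. The higher one was Slc24a3, which encodes the exchanger NCKX3, with 7.56 CPM in OHCs against 100.1 CPM in cIHCs, giving a log2 ratio of 3.73. Reads were found in 5 OHCs and 64 cIHCs, and its median per cIHC was 88.9 CPM. A single OHC held 51.1% of its OHC reads, and leaving out the highest cell on either side gave 4.68 for Slc24a3, with 2 genes of the list left and a median of 2.59. Atp2c1, the secretory pathway pump of the Golgi apparatus, was the most widely found in OHCs, with 37.6 and 50.5 CPM. Slc8b1, the mitochondrial exchanger NCLX, stayed under the minimum with 8.02 and 1.62 CPM.

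Of the genes of SERCA regulators and store proteins, 6 of 14 had at least 10 CPM, with a median of -0.17. Of these 6, 1 was higher, beside 26.3% of all genes, and 0 lower, beside 14.3% of all genes. The higher gene was Pln, which encodes phospholamban, an inhibitor of SERCA pumps, with 11.1 and 35.2 CPM and a log2 ratio of 1.67, and was found in 10 OHCs and 63 cIHCs. Mrln, which encodes the SERCA inhibitor myoregulin, had no read in OHCs and 9.59 CPM over 24 cIHCs, just under the minimum. Sln, Strit1, Srl and Casq2 had no reads in either group. The store proteins were the most abundant of the list, with Pdia3 at 695.2 and 397.8 CPM, Canx at 483.2 and 356.5 CPM and Calr at 289.9 and 400.8 CPM.

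Of the partners of PMCA pumps, 8 of 10 had at least 10 CPM, with a median of 0.28. Of these 8, 1 was higher, beside 26.3% of all genes, and 1 lower, beside 14.3% of all genes. The lower gene was Nptn, which encodes neuroplastin, a subunit of PMCA complexes, with 425.2 and 156.6 CPM and a log2 ratio of -1.44. Its medians were 412.3 CPM per OHC and 154.5 CPM per cIHC, with reads in every cell of both groups. The higher gene was Cask, which encodes a membrane scaffold protein, with 38.5 and 98.7 CPM and a log2 ratio of 1.36. Without the highest cell of each gene Slc9a3r2 also passed, which made 2 higher genes.

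All 11 genes of mitochondrial calcium uptake had at least 10 CPM, 3 were higher and 1 lower, with a median of 0.08; these counts are near the shares over all genes, 26.3% and 14.3%. The pore gene Mcu had 8.68 and 30.0 CPM, a log2 ratio of 1.79, and Mcur1, a uniporter regulator, 6.89 and 16.1 CPM, a ratio of 1.23. The highest OHC held 53.3% of the OHC reads of Mcu and, for Mcur1, 48%, and leaving out the highest cell on either side gave 2.78 and 1.99. Mcub, a pore subunit that lowers uptake, was the lower gene with 15.7 and 3.34 CPM, a ratio of -2.24. It had reads in 8 OHCs and 4 cIHCs and was under the minimum once the highest cell on either side was left out. Vdac3 was the most abundant in OHCs with 416.1 CPM, and Smdt1 in cIHCs with 415.5 CPM.

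Of the sodium pump genes, 6 of 12 had at least 10 CPM, with a median of 2.13. Of these 6, 4 were higher, beside 26.3% of all genes, and 0 lower, beside 14.3% of all genes. Atp1b1, a beta subunit, stood at 81.1 and 815.3 CPM, a log2 ratio of 3.33, and the cIHC was higher in 98.3% of the pairs. The regulator genes Fxyd2 and Fxyd6 were also higher, with ratios of 7.84 and 2.67, but 65.9% and 96.7% of their cIHC reads came from 1 cell. Without the highest cell of each gene both were under the minimum, which left 4 genes, 2 of them higher, and a median of 0.62.

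**Figure D4:**
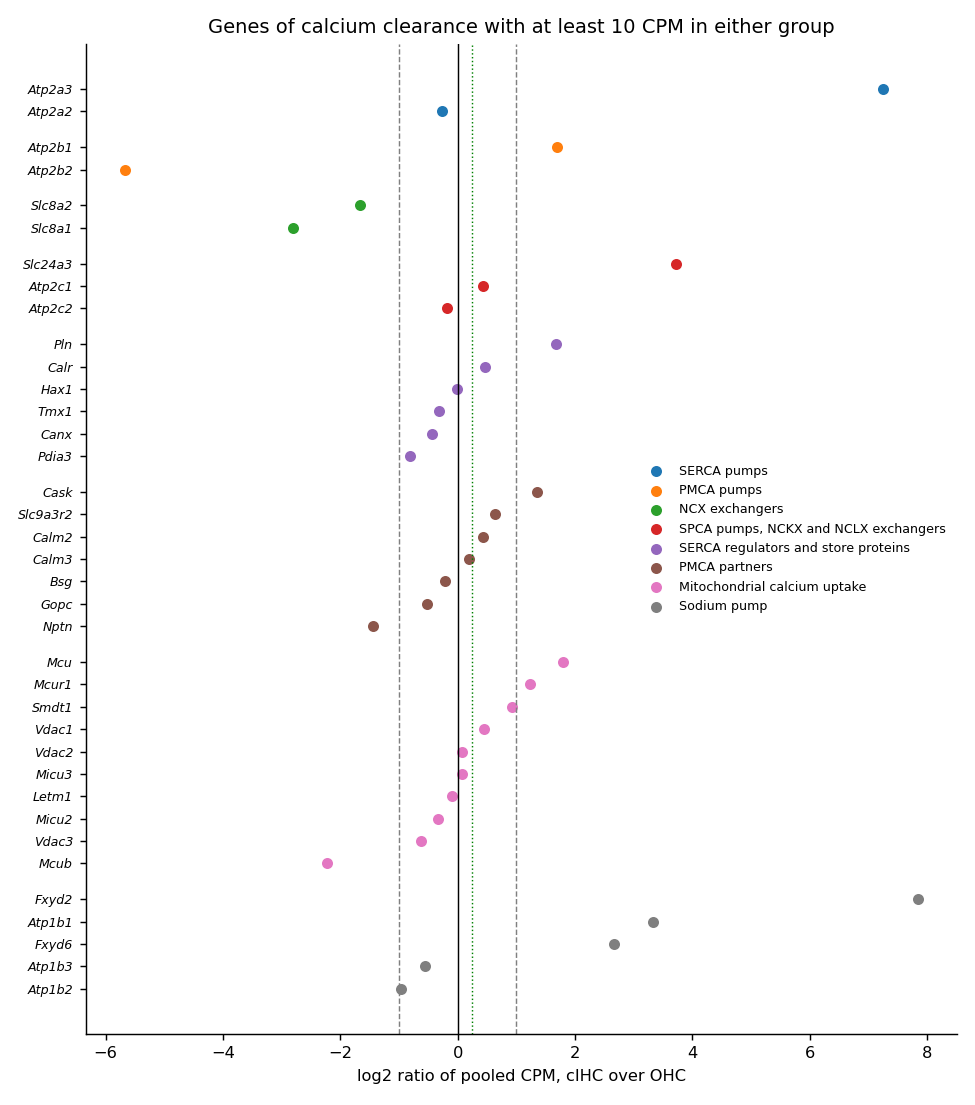
Log2 ratio of pooled CPM, cIHC over OHC, for the pump and exchanger genes and the 5 lists of other calcium clearance genes that reached 10 CPM in 1 or both groups; each point is 1 gene, coloured by list, and 3 genes of the lists are not drawn. Dashed lines mark -1 and 1, the dotted line the median of all 10041 genes at 0.25; Atp2a3 at 7.25 and Atp2b2 at -5.67 lie at opposite ends of the pumps.

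Markers of other cell types were summed in the same cells. For supporting cells the sum of 10 markers was 4784 CPM in OHCs and 570 CPM in cIHCs, of which S100a1, also found in hair cells, gave 4753 and 547 CPM; per cell the sums ranged from 1146 to 8401 CPM in OHCs and from 0 to 4449 CPM in cIHCs. The sum of 5 glial markers was 13.7 and 8.47 CPM, and that of 4 endothelial markers 8.39 and 0.03 CPM. The sum of 6 spiral ganglion neuron markers was 81.4 and 413 CPM, with ranges of 0 to 386.2 and 53.8 to 876.5 CPM per cell, mainly of neurofilament genes and Sncg, while Prph had no read in either group. The sum of 11 macrophage and blood markers was 4.54 and 53.4 CPM, of which C1qb gave 48.2 CPM in cIHCs, whereas C1qa and Cx3cr1 had no read in either group. The part of these markers in the levels of Atp2a3, Atp2b1, Atp2b2, Slc8a1 and Slc8a2 was not tested.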

How the data were processed

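Full-length cDNA of 99 hand-picked, tdTomato-positive cells was made with a Smart-Seq HT kit and tagmented, per the labels' protocols. The authors deposited 1 table of whole-number read counts per gene and cell, with no normalization seen in the values. The submitters' processing notes name HISAT2 2.2.1, StringTie 2.2.1, featureCounts 2.0.1 and mm10; their roles, the annotation, the strand setting and any filter are not given in the sources used here. The protocol text, shared by all cells, speaks of endogenous IHCs and induced OHCs, and the titles were followed for the groups. The table had 0 columns of no sample, and 0 pairs of cells were identical.

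All 99 cells were used. Counts were summed per group and divided by the group total. A group sum of 0 was replaced by 3 counts, which makes the ratio a bound. No ratio was given where both sums were at or under 3. Intervals are exact, Poisson for levels and conditional binomial for ratios, at 95%. Where no cell had reads, the upper limit is 3 divided by the number of cells. RPKM used the union of exons of GENCODE M21 on GRCm38, the build of mm10, which need not be the annotation used for counting. A call is a log2 ratio of at least 1 in size in genes that reach 10 CPM in either group. Each cell was also thinned to 5770000 reads, which leaves out 3 OHCs and 1 cIHC. The 10 genes and all lists were chosen with earlier results of these data known, and the lists come from general knowledge. All 10 genes are described. From the lists, genes past the threshold (up to 4 per direction) and the most abundant are named, with others of interest named after their values were seen, and the 3 most alike genes are given by Spearman's rho. Of the SERCA regulator list, 13 of 14 genes were found in the table by name. Values of 3 genes are part of their lists' counts and medians but are not reported here.

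The alternatives were means or medians of CPM per cell, dropping, gene by gene, the highest cell, TMM factors (edgeR 4.0.16; 0.936 for OHCs and 1.07 for cIHCs), median-of-ratios scaling (DESeq2 1.42.0), totals without mitochondrial or the 10 most abundant genes, cells with Xist or Y-linked reads, leaving out the 25% of cells with the fewest genes, thinning, no minimum, and ratios relative to all genes. The lengths of the longest transcripts and plain CPM for the families were added after seeing the data. Python 3.11.15 was used with matplotlib 3.10.9, scipy 1.17.1, pandas 2.3.3 and numpy 2.4.6, beside R 4.3.3.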

Additional observations from a re-analysis of the deposited data

How the results depend on the processing

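The ratios of Atp2a3, Atp2b1, Atp2b2, Slc8a1 and Slc8a2 kept their direction under every alternative that gave them a value. Atp2a3 ranged from 6.84 to a bound of at least 13.59, Atp2b1 from 1.01 to 1.93, Atp2b2 from -7.08 to -4.92, Slc8a1 from -3.79 to -2.17 and Slc8a2 from -2.59 to -1.62. From medians of CPM per cell 3 genes had a value, with 1 higher, 1 lower and a median ratio of 0.45. Over all genes in that setting 44.6% were higher and 9.57% lower, with a median of 0.73. With no minimum, 5 of 10 genes were higher and 4 lower, with a median of 0.71, while 42% of all genes were higher and 18.8% lower, with a median of 0.56. The median of the set, -0.97 as reported, was -0.89 from mean CPM, -0.82 without the highest cells, -1.16 with TMM, -1.17 with median-of-ratios scaling, -1.02 without mitochondrial genes and -1.75 without the 10 most abundant genes. It was -1.49 in cells with Xist reads, -1.87 in cells with Y-linked reads, -1.20 without the 25% of cells with the fewest genes and -0.92 after thinning. Across these settings the median of all genes lay between 0.02, with median-of-ratios scaling, and 0.50, without the highest cells. A seventh gene, Atp2a1, passed the minimum without the most abundant genes and in cells with Y-linked reads, which made 4 lower genes. In those settings 16.3% and 20.5% of all genes were lower. The causes of the other shifts were not tested. By plain reads Slc8a1 gave 46.9% of the NCX level in OHCs and 25.8% in cIHCs. After thinning, Atp2b2 had reads in 18 of 66 cIHCs and Atp2a3 in 3 of 29 OHCs. No paired analysis was possible because numbers in the titles only count cells and no result comes from a test. With 1 sample per group, depth sets only the counting error, and the spread between animals is unknown.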
